A study of Rattus norvegicus with 6 samples.

Results

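The Cyp2c genes encode the cytochrome P450 subfamily that supplies much of the drug- and steroid-oxidising capacity of rat liver. The listed family had 8 genes, and 7 of them were represented on the array, by 13 probes of 61573, among 15284 genes with a current symbol. Members were found by matching each probe's transcript accession to the current rat symbol, and each probe was kept as its own measurement. Cyp2c7 had 6 probes, Cyp2c6v1 had 2, and Cyp2c11, Cyp2c12, Cyp2c13, Cyp2c22 and Cyp2c23 had 1 each. No probe matched Cyp2c24 by accession, so it was not analysed here, and the 9 other RefSeq genes or pseudogenes named Cyp2c were not matched either.

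Liver RNA came from 3 male Sprague-Dawley (Crl:CD(SD)) rats dosed daily with 1000 mg/kg of BBMP, which is 2,2-bis(bromomethyl)-1,3-propanediol and serves as a flame retardant, and from 3 male rats of the same strain given corn oil, with 1 one-colour array per animal. The rats were 5 weeks old when bought. For the length of dosing the series design has 28 days but the treatment protocol has 9 weeks, and the files do not settle which holds. The BBMP livers shared 1 slide and scan and the corn oil livers a different one, so for every difference given here treatment cannot be told apart from slide or scan.

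Signals are given as log2 of the background-subtracted spot intensity minus log2 of the 75th percentile of that array, so that 0 is the 75th percentile and 1 unit is a 2-fold difference. Between 60.1% and 64.4% of probes were well above background on an array, lowest in corn oil 2. Corn oil 2 also stood apart on the main component of variation, where the BBMP livers scored 20.48 to 32.71, corn oil 2 scored -58.00, and corn oil 1 and 3 scored -10.89 and -16.24. All 8 hepatocyte markers on the list, among them Alb, Ttr and Hnf4a, were well above background on all 6 arrays, while of 3 pancreas markers Prss1 and Cela1 were above it on 0 arrays and Cpa1 on 1 (corn oil 1). Of 3 kidney markers Slc34a1 and Cdh16 were above it on 0 arrays and Umod on 6, at -4.47 to -3.99 in BBMP and -4.95 to -4.41 in corn oil livers. The number of arrays limits the precision of every value.

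Cytochromes of this subfamily sit in the endoplasmic reticulum and take electrons from P450 reductase. In the rat several of them are set by the daily pattern of growth hormone: pulses, as in males, drive Cyp2c11 through the transcription factor STAT5b, and steady exposure, as in females, drives Cyp2c12. The liver factors HNF4 and HNF6 bind promoters of the family, and the xenobiotic receptors CAR and PXR act on some members.

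In the GRCr8 assembly 7 of the listed genes lie in one cluster on chromosome 1, in the order Cyp2c11, Cyp2c24, Cyp2c6v1, Cyp2c7, Cyp2c12, Cyp2c13 and Cyp2c22. Cyp2c23 lies apart on the same chromosome, with 81 annotated genes between it and Cyp2c22. The 250 bases before the transcription start of 4 members are given here, from RefSeq's GRCr8 table and read 5′ to 3′ along each gene: Cyp2c7 because its 6 probes went the same way, Cyp2c11 and Cyp2c12 because they mark male and female liver, and Cyp2c13 because its upstream sequence is the nearest to that of Cyp2c12 among the 7 listed genes in the table. Capitals mark matches on either strand to 4 motifs. The HNF4-type motif searched was TGNACTTTG. For HNF6 the letters were ATTGAT, bound by the Onecut factors. The STAT palindrome was TTCNNNGAA, and no searched motifs overlapped in these windows. The TATA box was searched as TATAAA.
Cyp2c7, chr1:247966144-247966393, plus strand: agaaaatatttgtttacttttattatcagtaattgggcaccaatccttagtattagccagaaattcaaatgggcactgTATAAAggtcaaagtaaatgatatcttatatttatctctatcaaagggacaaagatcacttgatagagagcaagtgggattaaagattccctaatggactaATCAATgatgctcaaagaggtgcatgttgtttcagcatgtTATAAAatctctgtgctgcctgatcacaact
Cyp2c11, chr1:246174966-246175215, plus strand: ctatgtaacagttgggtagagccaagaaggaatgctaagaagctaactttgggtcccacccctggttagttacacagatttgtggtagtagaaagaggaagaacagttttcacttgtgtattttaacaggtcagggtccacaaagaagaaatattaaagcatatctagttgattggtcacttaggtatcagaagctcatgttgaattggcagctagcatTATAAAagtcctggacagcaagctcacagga
Cyp2c12, chr1:248677035-248677284, minus strand: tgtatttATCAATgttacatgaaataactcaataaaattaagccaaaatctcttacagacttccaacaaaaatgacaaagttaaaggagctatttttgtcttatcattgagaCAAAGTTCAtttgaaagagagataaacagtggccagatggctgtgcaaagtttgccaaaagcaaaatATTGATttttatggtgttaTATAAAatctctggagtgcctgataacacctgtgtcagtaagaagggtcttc
Cyp2c13, chr1:248787189-248787438, minus strand: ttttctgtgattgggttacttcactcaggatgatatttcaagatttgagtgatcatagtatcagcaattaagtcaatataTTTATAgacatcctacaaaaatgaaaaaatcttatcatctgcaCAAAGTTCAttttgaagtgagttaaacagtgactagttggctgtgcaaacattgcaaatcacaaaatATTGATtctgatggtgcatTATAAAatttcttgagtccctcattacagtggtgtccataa

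Cyp2c12 and Cyp2c13, a female-predominant and a male-predominant gene, were 63.1% identical over the aligned 250 bases. Identity between pairs among the 7 genes ranged from 43.4% to 64.2%, the highest being Cyp2c11 with Cyp2c24. Both Cyp2c12 and Cyp2c13 held the HNF4-type letters CAAAGTTCA, on the minus strand from -138 and from -127 relative to the start, followed by ATTGAT from -71 and from -60. Among 33469 rat upstream windows of the same length, 1.06% held the HNF4-type letters, 7.10% the HNF6-type letters and 12.9% the TATA letters. TTCNNNGAA was found in none of the 7 windows and in 7.67% of all windows. These matches describe letters in a window and do not show binding.

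After BBMP the family did not move as one. No Cyp2c probe passed limma's adjusted p of 0.05 (Benjamini-Hochberg over all 37644 probes tested), where 0.00531% of the probes tested did so. At an unadjusted limma p under 0.05 there were 2 of 13, both for Cyp2c7 and both lower, beside 10.4% of all probes tested (4.66% higher and 5.76% lower). Signal averaged lower after BBMP for 9 of the 13 probes and higher for 4, where 51% of all probes tested were lower and 49% higher, with a median log2 difference of -0.12, against -0.0054 over all probes tested. This median rests on the 6 probes of Cyp2c7: the 7 other probes had a median of 0.20, with 4 higher and 3 lower, and with the brightest probe of each gene alone the median over 7 genes was also 0.20. The groups did not overlap for 6 of the 13 probes, beside 17.4% of all probes tested. Of these, 5 were probes of the single gene Cyp2c7, lower after BBMP, and 1 was that of Cyp2c23, higher. With the brightest probe of each gene alone, 1 of 7 genes was lower and 1 higher without overlap. Among all probes tested 9.06% were lower and 8.38% higher without overlap. All 13 probes were well above background on all 6 arrays and none was saturated. Since the RNA is from whole liver, fewer cells of a type and less RNA per cell cannot be told apart.

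**Figure D1:**
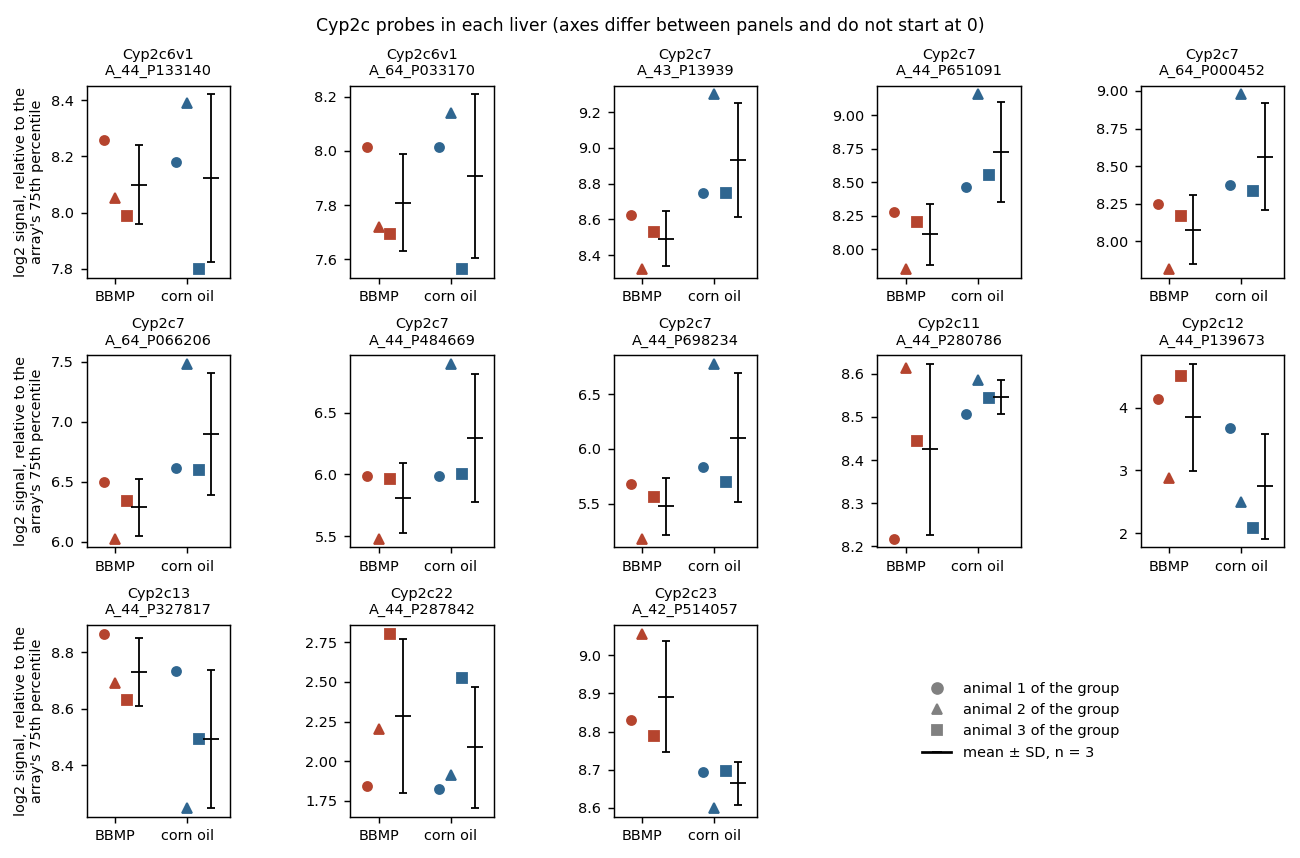
Log2 signal relative to the array's 75th percentile (vertical axes, different in each panel) for the 13 Cyp2c probes in the 3 BBMP and the 3 corn oil livers; marker shape gives the animal, and the bar is the mean ± SD (n = 3). For 5 of the 6 Cyp2c7 probes every BBMP liver lies below every corn oil liver, and the Cyp2c12 values of the groups overlap.

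Cyp2c7 hydroxylates retinoic acid and steroids and is female-predominant in the rat. Its brightest probe, A_43_P13939, read 8.63, 8.32 and 8.53 in BBMP livers 1 to 3, against 8.75, 9.30 and 8.75 in corn oil livers 1 to 3. The groups did not overlap, with corn oil 2 far above the rest and BBMP 2 lowest. The log2 difference was -0.44 (95% interval -0.88 to -0.0026; limma adjusted p = 0.477).

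Probe A_44_P651091 gave the smallest p of the family. It read 8.27, 7.85 and 8.20 in BBMP livers, against 8.46, 9.15 and 8.55 in corn oil livers, a difference of -0.61 ± 0.22 (SE, n = 3 each; limma adjusted p = 0.442), or 0.653 times the corn oil signal. The gap between the groups was 0.19, wider than for any other Cyp2c7 probe.

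Across all 6 Cyp2c7 probes the differences ranged from -0.63 to -0.44. In 5 of the 6 every BBMP liver lay below every corn oil liver, where 9.06% of all probes tested were lower without overlap. The exception was A_44_P484669, at 5.99, 5.48 and 5.96 in BBMP livers against 5.99, 6.89 and 6.01 in corn oil livers, where BBMP 1 and corn oil 1 overlapped by less than 0.01. These probes share their animals and their transcript, and correlated with each other over the 6 arrays at Pearson r from 0.962 to 0.998, so they repeat 1 measurement and are not 6 results. Cyp2c7l1, a neighbouring gene with a like name, had no matched probe. Whether its transcript, or that of any other close relative, binds the probes of a Cyp2c gene was not tested.

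The same 2 animals set the ends of the Cyp2c7 range on every probe. BBMP 2 was lowest and corn oil 2 highest on 6 of 6 probes. Corn oil 2 exceeded the mean of the other corn oil livers by 0.55 to 1.01, more on the 3 dimmer probes (0.87 to 1.01) than on the 3 brighter ones (0.55 to 0.64). Without corn oil 2 the Cyp2c7 differences shrank to between -0.40 and -0.19, with limma adjusted p from 0.743 to 0.892. The count of probes lower without overlap was 5 of 6, beside 12.6% of all probes tested under that setting. Leaving out the highest corn oil liver cannot make groups overlap, so that count says nothing about dependence on corn oil 2.

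**Figure D2:**
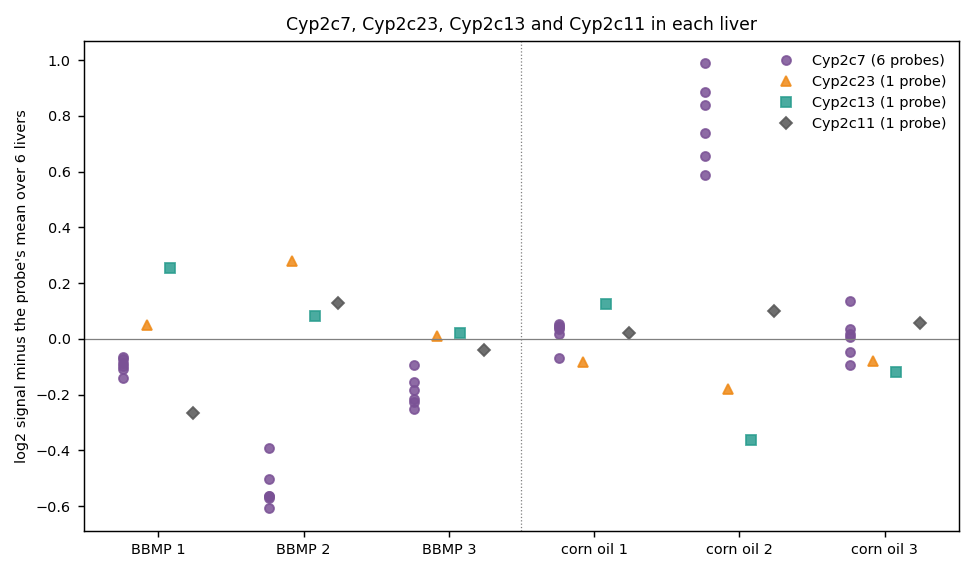
Log2 signal minus the probe's mean over the 6 livers (vertical axis) in each BBMP and corn oil liver (horizontal axis) for Cyp2c7 (6 probes), Cyp2c23, Cyp2c13 and Cyp2c11 (1 probe each). Cyp2c7 is lowest in BBMP 2 and highest in corn oil 2, Cyp2c23 is highest in BBMP 2 and lowest in corn oil 2, and Cyp2c11 stays within 0.27 of its mean in every liver.

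Cyp2c23 makes epoxides from arachidonic acid and is best known as the epoxygenase of rat kidney. Its probe read 8.83, 9.06 and 8.79 in BBMP livers, against 8.70, 8.60 and 8.70 in corn oil livers. Every BBMP liver was above every corn oil liver, which held for 8.38% of all probes tested, and no other Cyp2c probe was higher without overlap. The difference was 0.23 (95% interval -0.03 to 0.49; limma adjusted p = 0.517), 1.17 times the corn oil signal, and 0.14 without BBMP 2.

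Cyp2c23 and Cyp2c7 had opposite ends in the same livers. BBMP 2 had the highest Cyp2c23 and the lowest Cyp2c7 signal, and corn oil 2 the lowest Cyp2c23 and the highest Cyp2c7 signal. Over the 6 arrays Pearson r between Cyp2c23 and the Cyp2c7 probes lay between -0.91 and -0.83, as a description of 6 arrays that share the 2 groups and slides. The other livers did not all follow this: BBMP 1 was above BBMP 3 for Cyp2c23 and on all 6 Cyp2c7 probes.

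Cyp2c11, the main male-specific cytochrome P450 of rat liver and a testosterone hydroxylase, read 8.22, 8.61 and 8.44 in BBMP livers, against 8.51, 8.59 and 8.54 in corn oil livers. The corn oil livers were close together, and the BBMP livers lay on both sides of them, BBMP 1 lowest and BBMP 2 highest of all. The SD was 0.20 in BBMP livers and 0.04 in corn oil livers (n = 3 each), and the difference in spread was not tested. The difference in level was -0.12 (95% interval -0.42 to 0.18; limma adjusted p = 0.749). A 2-fold difference between the groups in either direction lies outside this interval. The interval measures only the spread of animals within a slide, so it does not bound the effect of treatment apart from slide or scan. The difference also rests on 1 probe. This difference was -0.017 without BBMP 1 and -0.21 without BBMP 2, and the sign turned to 0.04 with normexp background correction.

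Cyp2c13, also male-predominant and a steroid hydroxylase, read 8.87, 8.69 and 8.63 in BBMP livers, against 8.74, 8.25 and 8.49 in corn oil livers. BBMP livers averaged higher, with corn oil 1 inside their range. The difference was 0.24 (95% interval -0.12 to 0.60; limma adjusted p = 0.600), 0.12 without corn oil 2 and 0.36 without corn oil 1. With normexp background correction it was 0.404 (limma adjusted p = 0.347, unadjusted 0.0127), the lowest adjusted p of any Cyp2c probe in the settings run. Cyp2c22, a male-predominant member that oxidises retinoic acid, read 1.85, 2.20 and 2.81 in BBMP livers, against 1.83, 1.91 and 2.53 in corn oil livers. The groups overlapped over most of their range, with a difference of 0.20 (95% interval -0.51 to 0.90; limma adjusted p = 0.830) that turned to -0.06 without BBMP 3.

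Cyp2c12, the female-specific steroid sulfate hydroxylase, had the largest mean difference and the widest spread of the family. It read 4.14, 2.89 and 4.51 in BBMP livers, against 3.68, 2.49 and 2.08 in corn oil livers. BBMP 3 and BBMP 1 were highest, but corn oil 1 was above BBMP 2, so the groups overlapped. The means were 3.85 ± 0.85 in BBMP and 2.75 ± 0.84 in corn oil livers (SD, n = 3 each), a difference of 1.096 (95% interval -0.23 to 2.42; limma adjusted p = 0.532), or 2.14 times the corn oil signal. Its SD within groups, 0.84, was above that of 98.5% of the probes tested, where the median probe had 0.18, and its difference was larger in size than that of 99.1% of them. Leaving out 1 animal moved the difference between 0.76 and 1.58.

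Cyp2c6v1, a constitutive member of both sexes that phenobarbital can induce, had the smallest mean differences of the family. Probe A_44_P133140 read 8.26, 8.05 and 7.99 in BBMP livers, against 8.18, 8.39 and 7.80 in corn oil livers. The other probe, A_64_P033170, read 8.01, 7.72 and 7.69 in BBMP livers, against 8.01, 8.14 and 7.56 in corn oil livers. The animals kept the same order on both probes (Pearson r = 0.970 over 6 arrays), and corn oil 2 and corn oil 3 spanned the range. The differences were -0.02 (95% interval -0.44 to 0.39; limma adjusted p = 0.972) and -0.10 (95% interval -0.53 to 0.34; limma adjusted p = 0.871).

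**Figure D3:**
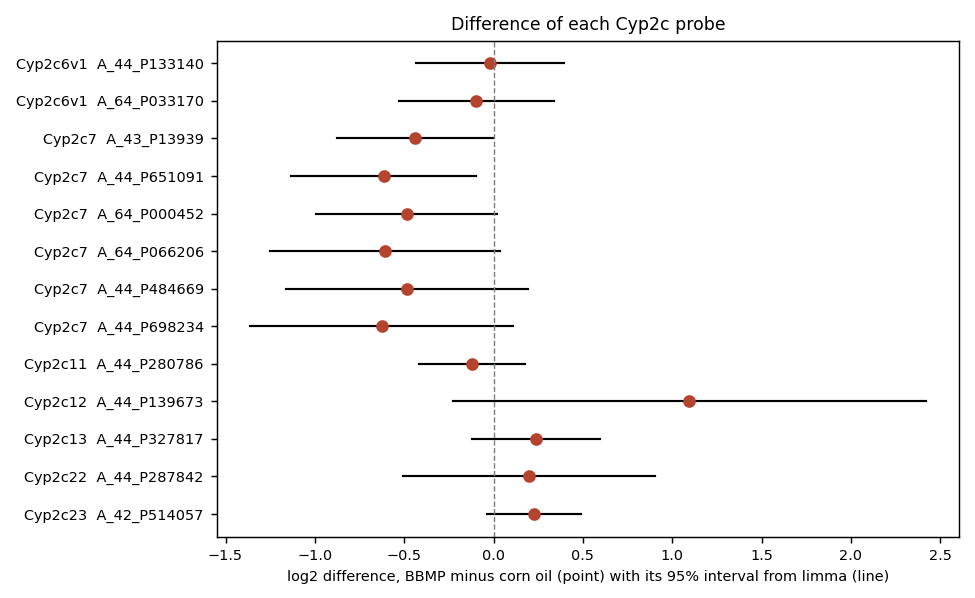
Log2 difference, BBMP minus corn oil (horizontal axis), of each of the 13 Cyp2c probes (rows), with its 95% interval from limma as a line. The 6 Cyp2c7 probes lie between -0.63 and -0.44, Cyp2c12 at 1.096 has the widest interval, and the intervals of 11 probes include 0.

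Genes that regulate the family or work beside it were described as 7 lists, with each gene represented by its brightest probe. Of 79 listed genes 69 were tested, none passed limma's adjusted p of 0.05 over all probes, and 18 had an unadjusted p under 0.05, beside 10.4% of all probes tested. Signal averaged lower after BBMP for 41 and higher for 28, where 51% of all probes tested were lower and 49% higher, and the median difference was -0.12. The Cyp2c genes taken the same way, by their brightest probe, had a median of 0.20.

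Of the growth hormone route to STAT5, 12 of 13 genes averaged lower, with a median of -0.28, and 5 were lower without overlap, where 51% of all probes tested were lower and 9.06% lower without overlap. Igfals, which encodes a carrier of circulating IGF, read 3.16, 3.06 and 3.24 in BBMP livers, against 3.35, 4.24 and 3.60 in corn oil livers, with corn oil 2 highest as for Cyp2c7. Cish, a STAT5-induced inhibitor of the receptor, read 0.98, -1.55 and -2.14 in BBMP livers, against 0.90, 1.69 and 1.33 in corn oil livers. BBMP 1 was inside the corn oil range for Cish and was also the lowest liver for Cyp2c11. Limma adjusted p was 0.469 for Igfals and 0.442 for Cish, and 0.348 for Socs3 and 0.372 for Prlr, the other listed members with the smallest p.

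Other male-enriched genes did not share a direction: 9 of 14 averaged lower and 5 higher, with a median of -0.13. Of all probes tested 51% were lower and 49% higher. Without overlap 4 of the 14 genes were lower and 1 higher, beside 9.06% and 8.38% of all probes tested, and 9 overlapped. The 4 genes named next were those with the smallest p. Cyp2a2, a male-specific steroid hydroxylase, read 5.75, 5.85 and 5.88 in BBMP livers, against 5.49, 5.07 and 5.46 in corn oil livers, higher without overlap (0.48 ± 0.14, SE; limma adjusted p = 0.424). Obp3, which encodes a urinary carrier protein, was lower without overlap, at 10.43, 10.51 and 10.34 in BBMP livers against 10.82, 10.82 and 10.62 in corn oil livers (limma adjusted p = 0.428). Rgn (-0.86) and Sult1e1 (-0.39) were also lower without overlap.

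Female-enriched genes went both ways as well, with 6 of 10 lower and 4 higher, where 51% of all probes tested were lower. Without overlap 4 were lower and 2 higher, beside 9.06% and 8.38% of all probes tested. An unadjusted limma p under 0.05 was reached by 6, beside 10.4% of all probes tested. Differences ran from -2.32 for Prlr to 1.41 for Sult2a2, both without overlap. Sult2a2 was chosen after its value was seen and was well above background on 5 arrays. The exception was corn oil 2, where it read -5.40 and the dimmest signal well above background was -4.89. The steroid reductase Srd5a1 (-0.56) averaged lower, and the cytochrome Cyp2a1 (0.45) higher, both without overlap. A1bg passed the background criterion in 0 BBMP livers and in 3 corn oil livers, at least 2.60-fold lower after BBMP (mean signal -5.84 in BBMP and -3.91 in corn oil livers; limma adjusted p = 0.170 for the measured difference). For such a gene the bright group's mean is set against whichever is higher on each dim array, this probe's signal or the dimmest signal that was well above background.

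Among 11 liver transcription factors listed for Cyp2c promoters, 7 averaged lower and 4 higher, where 51% of all probes tested were lower. Their binding to these promoters was not tested. Without overlap 2 of the 11 were lower, beside 9.06% of all probes tested. Foxa2, a forkhead factor of hepatocytes, read 2.42, 1.25 and 2.52 in BBMP livers, against 2.62, 3.94 and 4.01 in corn oil livers, lower without overlap (-1.46 ± 0.49, SE; limma adjusted p = 0.435). Tef, a clock-linked PAR-domain factor, was also lower without overlap (-0.39, limma adjusted p = 0.404), and Foxa3 differed by -0.46. Hnf4a and Onecut1 were picked with their values already seen. Hnf4a differed by 0.04 and Onecut1, which encodes HNF6, ranged from 3.12 to 5.27 in BBMP and from 3.53 to 6.30 in corn oil livers.

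Of 8 xenobiotic receptors and partners 6 averaged higher, where 49% of all probes tested did. Without overlap 1 was lower and 1 higher, beside 9.06% and 8.38% of all probes tested. Nr1i3, which encodes CAR, read 3.82, 3.78 and 3.396 in BBMP livers, against 3.76, 2.32 and 2.68 in corn oil livers, with corn oil 1 inside the BBMP range (0.74 ± 0.37, SE; limma adjusted p = 0.526). The retinoid X receptor Rxrb was higher without overlap (0.23), and the bile acid receptor Nr1h4 differed by 0.42.

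The list of electron partners, which also holds the haem enzymes Alas1 and Hmox1, split 4 higher and 2 lower. Its largest difference was that of Alas1, the rate-limiting enzyme of haem synthesis. Alas1 read 8.25, 8.43 and 6.78 in BBMP livers, against 7.15, 6.30 and 6.89 in corn oil livers, overlapping through BBMP 3 (1.04 ± 0.46, SE; limma adjusted p = 0.499). Hmox1 (-0.32), Pgrmc1 (0.14) and Cyb5r3 (-0.20) had smaller differences. In the arachidonic acid route 5 of 10 were higher and 5 lower, near the 49% and 51% of all probes tested, and 0 of 10 were free of overlap, beside 17.4% of all probes tested. Ephx2, the soluble hydrolase that opens the epoxides made by Cyp2c23, ranged from -0.42 to 2.89 in BBMP and from 1.49 to 3.33 in corn oil livers, and Ephx1, Cyp2j4 and Cyp4a1 differed by 0.22, 0.33 and 0.20.

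**Figure D4:**
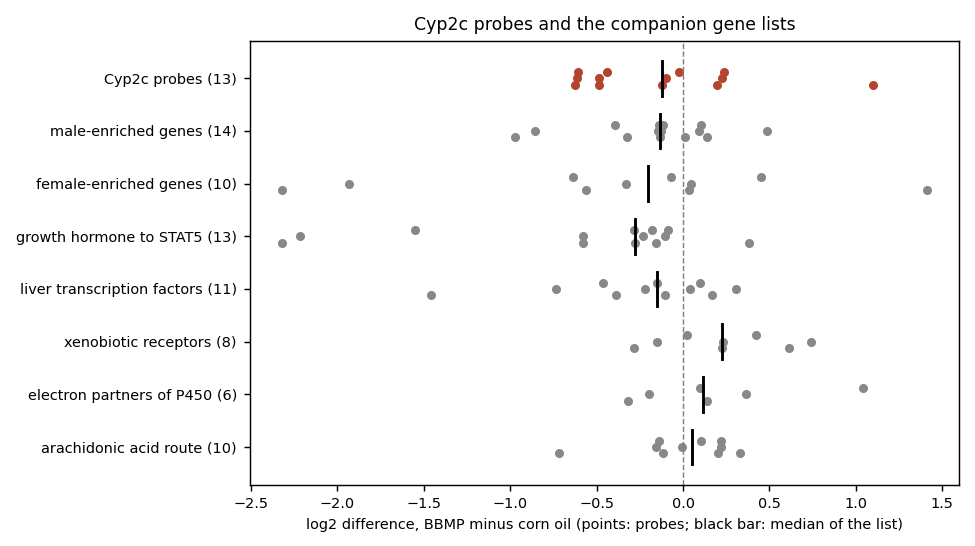
Log2 difference, BBMP minus corn oil (horizontal axis), for the 13 Cyp2c probes (red) and for the tested genes of 7 lists (grey), with a black bar at each median. List medians lie between -0.28 for the growth hormone route and 0.23 for the xenobiotic receptors, and Cyp2c12 is the Cyp2c probe farthest from 0.

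The genes whose animal-by-animal pattern was most like a member's were named by Pearson correlation over the 6 arrays among 10701 other genes. Such likeness is easily reached with 6 arrays and is a description. Chrd (0.991) and rnf141 (0.988) were nearest to Cyp2c7, and both had BBMP 2 lowest and corn oil 2 highest. Gnpnat1 (0.997) and Il33 (0.989) were nearest to Cyp2c11, Pik3r5 (0.989) and Ermp1 (0.988) to Cyp2c12, and Ankrd16 (0.997) and Lrfn3 (0.995) to Cyp2c13. Abt1 (0.995) and Ahcy (0.993) were nearest to Cyp2c23, Mmgt2 (0.991) and Nde1 (0.986) to Cyp2c22, and Vps36 (0.987) and Coq10a (0.984) to Cyp2c6v1.

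Markers of other liver cells moved beside these results in part, and their part in them was not tested. The summed linear signal of 6 stellate cell markers was 10.2 to 11.8 in BBMP and 12.8 to 15.0 in corn oil livers, without overlap. Of these 6, Lrat, Reln and Pdgfrb were lower without overlap, as were 9.06% of all probes tested. Des was higher without overlap, as were 8.38% of all probes tested, by a narrow gap (lowest BBMP liver -2.413, highest corn oil liver -2.424). Col1a1 and Rgs5 overlapped. The summed signal of 6 Kupffer cell markers was 68.2 to 87.9 in BBMP and 51.7 to 86.4 in corn oil livers, and that of the 8 hepatocyte markers was 4465 to 5116 in BBMP and 4977 to 5292 in corn oil livers. The sum of 3 neutrophil markers was 0.757 to 1.48 in BBMP and 1.18 to 3.29 in corn oil livers, with Ngp above background on 0 arrays, and that of 4 T cell markers was 1.25 to 1.601 in BBMP and 1.37 to 2.53 in corn oil livers. Corn oil 2, the liver highest for Cyp2c7, was also the highest of all 6 for S100a8, S100a9, Cd3g, Cd3d and Cd3e. The remaining neutrophil and T cell markers, Ngp and Cd2, were highest in BBMP 3. Cd3e was well above background on 2 arrays and Cd2 on 4.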

How the data were processed

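Per the labels' protocols, Cy3-labelled RNA of each liver was hybridised to 1 one-colour Agilent array. Per the file headers, design 035170 (annotated on rn4) was extracted by Agilent Feature Extraction 10.7.1.1 with background subtraction and spatial detrending; the submitters' processing notes name version 10.7. The deposited scanner files hold linear intensity per spot with no scaling across arrays. A table of the authors' processed values, also intensity, equals the processed signal divided by 1 constant per array near its 75th percentile (449.4 to 567.9), with column medians from 0.0965 to 0.0998; who chose that scaling and with which software is not given in the sources used here.

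Of 62976 spots, 1319 controls and 84 spike-in probes were left out, leaving 61573 probes. Accessions without version were matched to RefSeq's GRCr8 table, which named 27460 probes (44.6%). Spots with outlier marks (1 to 21 per array) were left out. The log2 processed signal minus log2 of the array's 75th percentile (450.1 to 570.4) was tested two-sided, without covariates, by lmFit and eBayes of limma 3.58.1 under R 4.3.3, each probe on its own row. A probe was tested if well above background on all 3 arrays of a group, which kept 37644, and p was adjusted by Benjamini-Hochberg. Simulated data with 200 of 37628 probes changed gave back 42.8% of log2 changes of 1, 81.8% of 2 and 95.1% of 3. The noise was independent and normal, with the probes' SDs shuffled, and held no slide difference or outlying array. These rates are therefore not those of any single member. The Cyp2c7 differences were smaller than the smallest change simulated. Tables used Python 3.11.15, pandas 2.3.3, numpy 2.4.6, Biopython 1.88 and matplotlib 3.10.9.

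Alternatives were normexp background correction (offset 50, on the median spot signal), median scaling, quantile normalisation, dropping the filter, requiring signal above background on all 6 arrays, 1 probe per gene or the mean of a gene's probes, trended robust moderation, an unmoderated unequal-variance test, the authors' table, the replicate number as a block, saturated spots left out and each array left out in turn. Same-numbered animals deviated together at correlations of 0.095, 0.015 and 0.065, and different-numbered ones at -0.097 to 0.032. With 3 animals per group these values cannot decide whether the numbers pair the animals, and the main fit did not use the numbers. Named genes were all Cyp2c probes, up to 4 genes of each list with the smallest p, and 2 genes nearest to each member by correlation; others are said to be chosen after their values were seen, and some genes the rule names are not reported here. The members and lists were chosen with earlier results of these data known. Labels do not say whether replicates shared anything but treatment, though by the file headers those of a group shared a slide and scan. The p-values therefore set each difference between groups against the spread of animals within a slide. Marker sums are 2 to the power of the log2 value, added over a list.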

Additional observations from a re-analysis of the deposited data

How the results depend on the processing

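No Cyp2c probe and no gene of the companion lists passed an adjusted p of 0.05 under any of the 18 alternatives; adjusted p of the Cyp2c probes ranged from 0.347 to 0.997. Over all probes 2 passed, both lower (3924 at an unadjusted p under 0.05). That number was 0 with normexp (4296 unadjusted), 0 when signal above background was required on 6 of 6 arrays (3671), since both had it on 3, 0 with the unmoderated unequal-variance test (2604), 0 with the replicate block (4205), and 1 without a filter (4297). Leaving out 1 array gave 0 to 6, 0 without BBMP 1 or corn oil 3, 6 without corn oil 2, 4 without BBMP 3 and 1 without corn oil 1. The cause was not tested apart from that removal. The median Cyp2c difference of -0.12 became 0.20 with 1 probe per gene and 0.20 with the mean of a gene's probes, since Cyp2c7 then counts once, and -0.27 to -0.10 without 1 array. Signs turned with normexp for Cyp2c11 (0.042) and Cyp2c6v1 A_44_P133140 (0.011). Without 1 array they turned for that Cyp2c6v1 probe (-0.18 to 0.11), for A_64_P033170 (-0.27 to 0.021) and for Cyp2c22 (-0.062 to 0.42). The 6 Cyp2c7 probes, Cyp2c12, Cyp2c13 and Cyp2c23 kept their sign in every alternative run on them. The number of Cyp2c7 probes lower without overlap, recounted after the data were seen, was 5 to 6 without 1 array (12.6% to 16.7% of all probes tested) and 5 with median scaling (7.9%). Leaving out an array can only keep or raise that number. The replicate block kept every Cyp2c difference and left all Cyp2c adjusted p at 0.465 or above. Among the tested genes of the companion lists, A1bg alone was well above background on 0 arrays of 1 group only, so it is given as a bound. Sult2a2 in corn oil 2 was below background by the same criterion, so its difference rests in part on a value near background.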
